A study of Homo sapiens with 16 samples.

Results

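The MCM helicase and its loading factors were described by transcript level in 16 libraries of human colorectal cancer cells. The genes were the 6 subunits of the replicative helicase (MCM2, MCM3, MCM4, MCM5, MCM6 and MCM7), the loaders ORC1, CDC6 and CDT1, and the initiation factor MCM10. They were taken by symbol, all 10 of 10 were found among the 54127 gene identifiers counted, and all 10 passed the filter on low counts in every comparison. HT55 and SW948, both established colorectal cancer cell lines, were grown attached in medium with foetal bovine serum and antibiotics and received itraconazole at 5 µM, or the solvent DMSO, for 6 days. Each combination of line and treatment was represented by 4 libraries. Itraconazole is an antifungal drug, and the study asked by which molecular route it acts on colorectal cancer cells. Each line is a model of its own, so a difference between HT55 and SW948 is a difference between 2 cell lines and not between tumour types.

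Replication licensing is the step that prepares chromosomes to be copied only once per cell cycle. In late mitosis and G1, the origin recognition complex (ORC1 is its largest subunit) marks replication origins, and CDC6 and CDT1 then place double rings of MCM2-7 around the DNA, where they wait without unwinding it. In S phase, the CDC7 kinase, CDC45, the GINS complex and MCM10 turn a waiting ring into an active helicase, while CDT1 is destroyed or held by geminin so that no origin is loaded again. Transcription of most of these genes is high in cycling cells and low in resting cells, and E2F proteins are among its known regulators.

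Between 8269406 and 11110814 reads per library were counted in genes. Treated libraries were less alike than controls: a mean chi-square per gene of 1.47 to 5.20 separated libraries of a DMSO group, against 5.26 to 44.4 in treated HT55 and 4.06 to 23.7 in treated SW948. The widest gaps were those of treated HT55 replicate 3 from replicates 2 and 1 (44.4 and 28.5) and, in treated SW948, of replicate 1 from replicate 3 (23.7). Treated HT55 replicate 3 was at 13.4 from replicate 4, and replicates 2 and 4 were at 17.2. Leaving out treated SW948 replicate 1 ended no SW948 call among the 10 genes and added that of CDT1. Treated HT55 replicate 3 was also the highest of its group for 9 of the 10 genes, so HT55 log2 fold changes of the 10 genes are given with and without it. In the other groups too, the library numbered 3 was the highest for most genes. It was so for 6 of them in HT55 with DMSO, 8 in SW948 with DMSO and 6 in treated SW948. The colorectal epithelial label was met, since all 10 epithelial markers had counts in every group. Their summed level was 7292 to 12409 counts per 1000000 counts in genes, after scaling between libraries (CPM). The T cell marker CD3E was at 0 in all 16 libraries, and the endothelial and fibroblast marker sums reached at most 0.713 and 11.6 CPM. The leukocyte list summed to 0.926 to 3.23 CPM in HT55, and to 289 to 352 CPM in SW948 with DMSO and 94.3 to 122 CPM with itraconazole, where LYZ (lysozyme, also made by gut epithelium) was the only gene of the list high enough to test. LYZ rose in HT55 (1.39 on the log2 scale, adjusted p = 0.00802) and fell in SW948 (-1.57, adjusted p = 1.1e-09) with treatment, and its part in the results on licensing genes was not tested. The study's methods describe the replicates as biological, so the p-values measure the spread between replicates of the same cell line. Levels come from whole cultures, in which fewer cycling cells and less RNA per cycling cell cannot be told apart.

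Itraconazole was followed by lower licensing transcripts in both lines. In HT55, all 10 genes were lower at an adjusted p under 0.05, against 26.5% of all genes tested that were lower and 27.5% that were higher. CDC6 and CDT1 were near the threshold, and the HT55 count was 9 in DESeq2 and 8 without control replicate 1. In SW948, 8 of 10 were lower and 0 higher, against 41.3% lower and 38.9% higher among all genes, and ORC1 and CDT1 were the pair that did not pass. Wherever a list had a count of 0 in a direction in the main edgeR test of a line, edgeR at an unadjusted p under 0.05 and DESeq2 also gave 0. This does not cover counts given for other settings, in some of which CDT1 passed as higher in SW948, as described below. The median log2 fold change of the 10 genes was -0.58 in HT55 and -0.95 in SW948, beside -0.015 and -0.025 over all genes tested. For 7 genes in HT55 every treated library lay under every control library, which held for 24.4% of all genes, and for 8 genes in SW948, against 37.4%. The spread of responses was narrow in HT55, from -0.23 to -0.84, and wide in SW948, from 0.30 to -2.68. Because an unscaled comparison by library totals moved the median of all genes to -0.181 in HT55 and -0.354 in SW948, folds are relative to the bulk of genes.

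**Figure D1:**
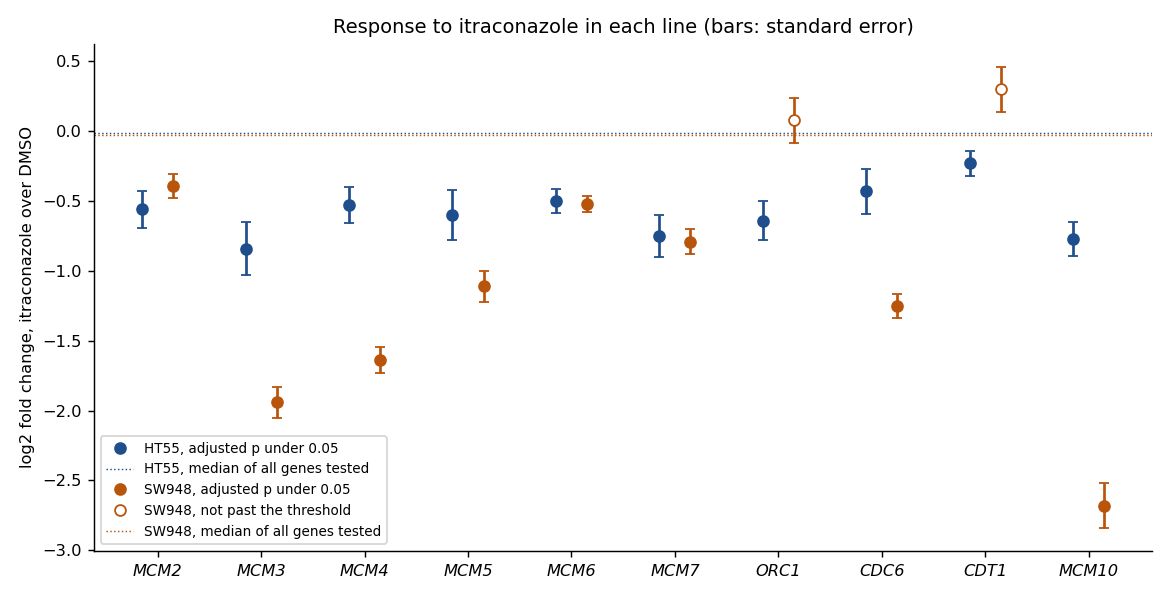
Log2 fold change (itraconazole over DMSO) of the 10 genes in HT55 (blue) and SW948 (orange), with bars of 1 standard error; filled points passed an adjusted p under 0.05 and dotted lines mark the median of all genes tested. All 10 HT55 points lie below 0, and in SW948 the points run from 0.30 for CDT1 to -2.68 for MCM10.

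MCM7, MCM6 and MCM2 fell in both lines, and their difference in response between the lines did not pass the test. MCM7 (ENSG00000166508; GRCh37, the hg19 build of the files, chr7:99689856-99699563, minus strand) forms with MCM4 and MCM6 a subcomplex that can unwind DNA by itself. Its HT55 levels were 318.7, 308.5, 330.1 and 318.1 CPM with DMSO and 184.3, 139.1, 255.5 and 182.9 CPM with itraconazole. Its SW948 levels were 319.6, 316.4, 319 and 320 CPM with DMSO and 156.9, 205.3, 214.8 and 175.8 CPM with itraconazole. Treated libraries lay under all controls whichever the line, and the log2 fold change was -0.75 (SE 0.15, adjusted p = 0.0017) in HT55 and -0.79 (SE 0.088, adjusted p = 1.31e-06) in SW948. Untreated, MCM7 stood at 319 CPM in both lines.

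MCM6 (ENSG00000076003; chr2:136597196-136634013, minus strand) is another part of that subcomplex. HT55 cultures with DMSO gave 229.6, 227, 227.8 and 226.1 CPM, and those with itraconazole 166.9, 139.6, 187.1 and 150.3 CPM. SW948 cultures gave 126.7, 123.5, 127.8 and 126 CPM with DMSO and 93.16, 88.89, 85.77 and 91.23 CPM with itraconazole. No treated library reached a control, and MCM6 fell by 0.50 on the log2 scale (SE 0.086, adjusted p = 0.000797) in HT55 and by 0.52 (SE 0.057, adjusted p = 1.08e-06) in SW948.

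MCM2 (ENSG00000073111; chr3:127317253-127341279, plus strand), whose flexible tail is phosphorylated by CDC7 and binds histones, was measured at 179.7, 166.5, 180.9 and 172.8 CPM in HT55 with DMSO and at 110.5, 94.32, 158.3 and 111.7 CPM with itraconazole. In SW948, it was at 75.85, 68.52, 87.02 and 71.07 CPM with DMSO and 53.59, 62.7, 64.39 and 56.41 CPM with itraconazole. The treated and control ranges did not overlap in either line. MCM2 fell by 0.56 (SE 0.13, adjusted p = 0.00507) in HT55 and by 0.39 (SE 0.087, adjusted p = 0.000966) in SW948, where it was the smallest decrease among the subunits.

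MCM3, MCM4 and MCM5 fell in both lines, with larger point estimates in SW948. MCM3 (ENSG00000112118; chr6:52128812-52149679, minus strand), which sits beside MCM5 in the ring, was at 406.9, 393.8, 413 and 408.1 CPM in HT55 with DMSO and at 193.7, 158.5, 342.2 and 213.3 CPM with itraconazole. SW948 libraries held 143, 147.4, 164.1 and 139.9 CPM with DMSO and 50.59, 36.64, 32.07 and 38.32 CPM with itraconazole. The SW948 groups were far apart, the highest treated library being well under the lowest control. The log2 fold change was -0.84 (SE 0.19, adjusted p = 0.00394) in HT55 and -1.94 (SE 0.11, adjusted p = 1.9e-09) in SW948, where MCM3 was left at 0.261 times its control level.

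MCM4 (ENSG00000104738; chr8:48872745-48890720, plus strand), a target of CDC7 in origin firing, gave 143.9, 138.7, 152 and 137.4 CPM in HT55 with DMSO and 96.44, 75.31, 127 and 98.92 CPM with itraconazole. The SW948 values were 101.7, 105.8, 114.6 and 110.3 CPM with DMSO and 32.06, 35.87, 43.14 and 31.2 CPM with itraconazole. Control and treated libraries were separate in both lines. MCM4 fell by 0.53 (SE 0.13, adjusted p = 0.00588) in HT55 and by 1.64 (SE 0.094, adjusted p = 1.98e-09) in SW948.

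MCM5 (ENSG00000100297; chr22:35796127-35821424, plus strand), which together with MCM2 forms the gate through which DNA enters the ring, had the lowest counts of the subunits, from 114 to 471 reads per library. In HT55 it was at 42.89, 43.24, 49.99 and 40.69 CPM with DMSO and 26.49, 21.25, 41.59 and 26.72 CPM with itraconazole. In SW948 it was at 32.03, 24.7, 32.31 and 27.83 CPM with DMSO and 12.42, 14.71, 15.02 and 13.57 CPM with itraconazole. Treated HT55 replicate 3 fell within the control range, while the SW948 groups did not overlap. The log2 fold change was -0.60 (SE 0.18, adjusted p = 0.0139) in HT55 and -1.11 (SE 0.11, adjusted p = 4.73e-07) in SW948. Without treated HT55 replicate 3, the HT55 decreases of the 6 subunits were larger, at -0.72 for MCM2, -1.10 for MCM3, -0.66 for MCM4, -0.83 for MCM5, -0.57 for MCM6 and -0.91 for MCM7.

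**Figure D2:**
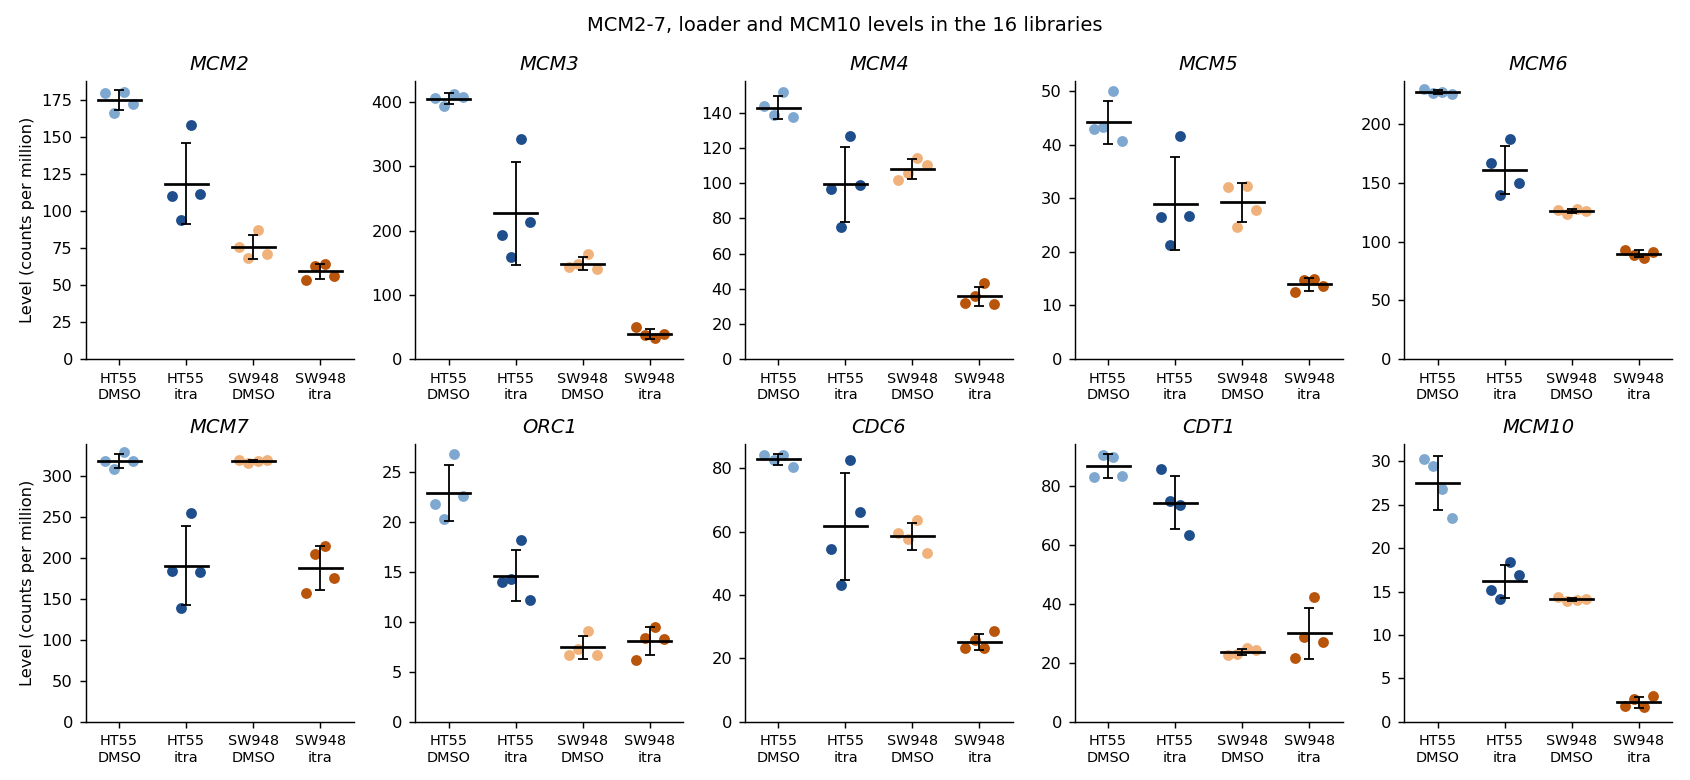
Level (CPM) of each gene in every library of the 4 groups (itra, itraconazole); points are libraries, thick lines the mean of 4 and thin bars 1 SD. MCM10 in treated SW948 lies between 1.65 and 2.94 CPM, against 13.9 to 14.4 CPM in the controls, while ORC1 and CDT1 overlap between treatments in SW948.

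Summed over MCM2-7, helicase transcripts were at 1314 ± 32.0 CPM (SD, n = 4) in HT55 with DMSO and 826 ± 204 CPM with itraconazole, and at 806 ± 26.2 CPM in SW948 with DMSO and 426 ± 27.7 CPM with itraconazole. The sum in treated HT55 ranged from 628.1 CPM in replicate 2 to 1112 CPM in replicate 3, and was still under the lowest HT55 control at 1278 CPM. Untreated SW948 cultures, at 786.3 to 844.7 CPM, lay above treated HT55 replicates 1, 2 and 4 (778.3, 628.1 and 783.8 CPM) and below replicate 3. The SW948 ranges with and without drug did not meet, with a highest treated value of 455.2 CPM.

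The 6 subunits are present once each in the ring, but their transcripts were not at equal levels. Per kilobase of merged exons, the highest subunit mean was MCM3 in HT55 with DMSO, at 111 RPKM (CPM per kilobase), and the lowest was MCM5, at 6.08 RPKM. The highest mean was 18.3 times the lowest in that group, 15.6 times in HT55 with itraconazole, 16 times in SW948 with DMSO and 19.8 times in SW948 with itraconazole. In SW948 the highest subunit was MCM7, at 64.3 RPKM with DMSO and 37.9 RPKM with itraconazole, and MCM3 was at 40.8 and 10.8 RPKM. The length used decided much of this spread: per kilobase of coding sequence it was 7.89, 6.73, 11.1 and 13.8 times in the same order. MCM5 was the lowest subunit by either length in all 4 groups.

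Among the loaders, CDC6 (ENSG00000094804; chr17:38444131-38460909, plus strand), the ATPase that joins ORC on DNA to recruit the rings, fell in SW948 by 1.25 on the log2 scale (SE 0.087, adjusted p = 1.23e-08). Its SW948 levels were 59.56, 57.83, 63.66 and 53.19 CPM with DMSO and 23.14, 25.67, 23.29 and 28.6 CPM with itraconazole, with every treated library under every control. In HT55 it was at 84.37, 82.56, 84.17 and 80.55 CPM with DMSO and 54.64, 43.2, 82.71 and 66.24 CPM with itraconazole, so that treated replicate 3 lay among the controls. The HT55 log2 fold change of -0.43 (SE 0.16, adjusted p = 0.041) was close to the threshold. Without treated replicate 3 it was -0.59 (adjusted p = 0.00026), whereas leaving out any other HT55 library ended the call, with folds of -0.29 to -0.46 and adjusted p of 0.0614 to 0.106.

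CDT1 (ENSG00000167513; chr16:88870197-88875666, plus strand), which carries MCM2-7 to the origin and is the target of geminin, had the smallest log2 fold change of the 10 genes in HT55. In HT55 it was at 82.85, 90.49, 89.8 and 83.4 CPM with DMSO and 85.52, 74.72, 73.38 and 63.38 CPM with itraconazole, with treated replicate 1 inside the control range. The HT55 log2 fold change was -0.23 (SE 0.087, adjusted p = 0.0476), and it did not pass in 7 of the 8 fits that left out a library (the exception was treated replicate 1, with -0.30 and adjusted p = 0.0137) or in DESeq2 (adjusted p = 0.0587). Without treated HT55 replicate 3 it was -0.21 (adjusted p = 0.0537). In SW948 the levels were 22.64, 22.81, 24.93 and 24.2 CPM with DMSO and 21.64, 28.77, 42.12 and 27.13 CPM with itraconazole. Treated SW948 replicates 2, 3 and 4 were above all controls and replicate 1 was below them, and the log2 fold change was 0.30 (SE 0.16, adjusted p = 0.0921). The SW948 value was 0.45 (adjusted p = 0.00433) without treated replicate 1, 0.092 (adjusted p = 0.425) without treated replicate 3, and -0.041 by library totals.

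ORC1 (ENSG00000085840; chr1:52838501-52870095, minus strand), the ORC subunit whose protein is itself removed as S phase proceeds, was at 21.88, 20.38, 26.85 and 22.66 CPM in HT55 with DMSO and 14.02, 14.28, 18.18 and 12.18 CPM with itraconazole. All treated HT55 libraries lay under the controls, and ORC1 fell by 0.64 (SE 0.14, adjusted p = 0.00299), or by 0.75 without treated HT55 replicate 3. In SW948 it was at 6.742, 7.288, 9.119 and 6.706 CPM with DMSO and 6.211, 8.386, 9.545 and 8.252 CPM with itraconazole, from 62 to 105 reads per library. These SW948 ranges overlapped, and the log2 fold change was 0.078 (SE 0.16, adjusted p = 0.66), or -0.26 by library totals and -0.0067 without treated replicate 3.

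The balance between loaders and helicase differed between groups. The mean log2 CPM of ORC1, CDC6 and CDT1 minus that of MCM2-7, a ratio within a library, was -1.70 ± 0.03 (SD, n = 4) in HT55 with DMSO and -1.49 ± 0.17 with itraconazole. In SW948 it was -2.27 ± 0.062 with DMSO and -1.51 ± 0.18 with itraconazole. The HT55 ranges touched (-1.74 to -1.67 against -1.68 to -1.29), and those of SW948 were apart (-2.33 to -2.21 against -1.76 to -1.35). The treated minus control difference was 0.21 in HT55 and 0.76 in SW948 by the mean, and 0.03 and 1.27 by the median over genes. In SW948, CDC6 fell with the helicase, whereas ORC1 and CDT1 did not pass the test.

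**Figure D3:**
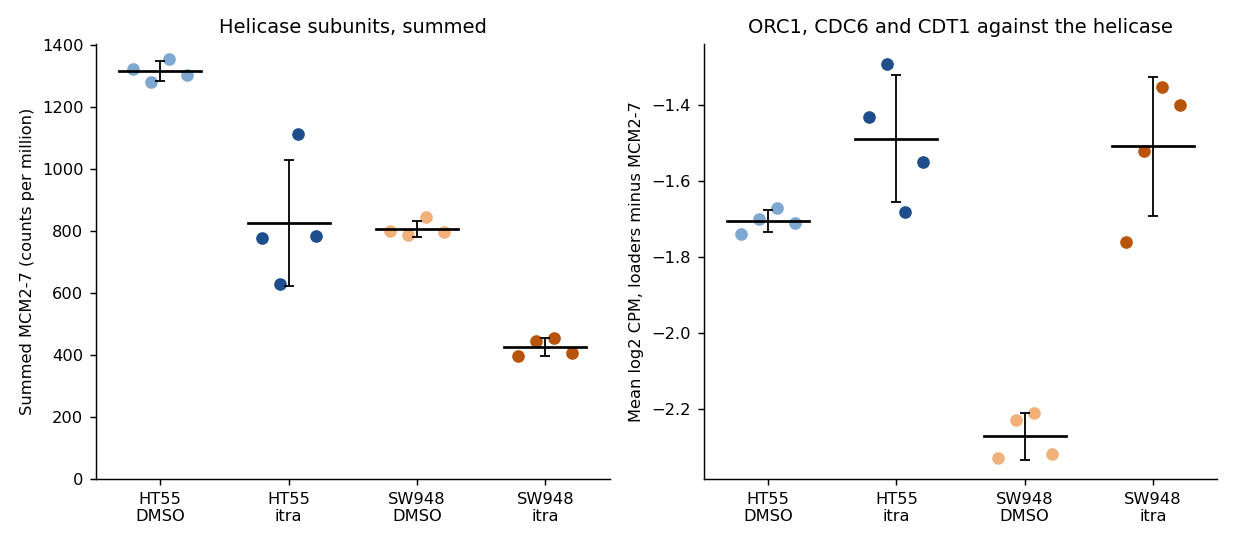
Left, summed MCM2-7 level (CPM) in each library; right, mean log2 CPM of ORC1, CDC6 and CDT1 minus that of MCM2-7, with thick lines for the mean of 4 libraries and thin bars for 1 SD. The helicase sum falls from 806 to 426 CPM in SW948, and the difference on the right goes from -2.27 to -1.51 there.

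MCM10 (ENSG00000065328; chr10:13203558-13253110, plus strand), which helps the loaded helicase to separate the strands and is no part of the ring despite its name, had the largest decrease of the 10 genes in SW948. In HT55 it was at 30.33, 29.44, 26.85 and 23.49 CPM with DMSO and 15.2, 14.17, 18.46 and 16.9 CPM with itraconazole. SW948 cultures held 14.37, 13.91, 14.07 and 14.11 CPM with DMSO and 1.803, 2.58, 1.654 and 2.939 CPM with itraconazole, the latter from 13 to 26 reads per library. Groups were apart in both lines. MCM10 fell by 0.77 (SE 0.12, adjusted p = 0.000399) in HT55 and by 2.68 (SE 0.16, adjusted p = 3.05e-09) in SW948, to 0.156 times the control level. Without treated HT55 replicate 3, its HT55 log2 fold change was -0.83.

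Whether the lines differed in their response was tested directly, as the SW948 minus HT55 difference of log2 fold changes in a fit of all 16 libraries. For 4 of the 10 genes the SW948 response was lower, against 29.1% of all genes tested, and for 2 it was higher, against 24.8%. The lower ones were MCM10 at -1.89 (SE 0.20, adjusted p = 4.65e-07), MCM4 at -1.09 (SE 0.17, adjusted p = 2.49e-05), MCM3 at -1.07 (SE 0.24, adjusted p = 0.0008) and CDC6 at -0.80 (SE 0.19, adjusted p = 0.00162). The higher ones were ORC1 at 0.75 (SE 0.22, adjusted p = 0.0064) and CDT1 at 0.55 (SE 0.19, adjusted p = 0.019), of which CDT1 went to 0.35 (adjusted p = 0.0978) by library totals. Of the 6 ring subunits, MCM3 and MCM4 passed. For the other 4, the intervals of 2 SE either side were -0.13 to 0.54 for MCM2, -0.91 to -0.04 for MCM5, -0.20 to 0.22 for MCM6 and -0.37 to 0.34 for MCM7. MCM2 passed without treated HT55 replicate 3 (0.37, adjusted p = 0.012), and MCM5 (adjusted p = 0.073) passed without treated HT55 replicate 2 (-0.60, adjusted p = 0.0131) or control SW948 replicate 2 (-0.55, adjusted p = 0.048), by library totals (-0.68, adjusted p = 0.0222) and with no filter (-0.48, adjusted p = 0.0135).

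Untreated SW948 cultures held less of the licensing transcripts than untreated HT55 cultures. With DMSO, 9 of 10 genes were lower in SW948, against 37.7% of all genes, with CDT1 at -1.87 (SE 0.14, adjusted p = 1.58e-10) and ORC1 at -1.62 (SE 0.15, adjusted p = 5.29e-09) the furthest apart. MCM3 followed at -1.45 and MCM2 at -1.21, then MCM10 at -0.96, MCM6 at -0.85, MCM5 at -0.60, CDC6 at -0.50 and MCM4 at -0.40. By library totals, CDC6 (-0.30, adjusted p = 0.0682) and MCM4 (-0.21, adjusted p = 0.139) no longer passed. MCM7 was level between the lines, at a log2 difference of -0.00046 (2 SE either side, -0.25 to 0.25).

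With itraconazole, 9 of 10 genes were again lower in SW948, against 41.5% of all genes, and the order had changed. MCM10 (-2.85, SE 0.16, adjusted p = 3.41e-12) and MCM3 (-2.52, SE 0.18, adjusted p = 9.42e-11) were then the furthest apart, and ORC1 (-0.87) and MCM6 (-0.84) the least apart of those that passed. MCM7 differed by -0.02 (2 SE either side, -0.27 to 0.23). In the order of the 4 group means, MCM2 and MCM6 formed 4 separate steps, both HT55 groups above both SW948 groups and the untreated above the treated within each line. For MCM3 and MCM10 the order was the same, but treated HT55 overlapped with untreated SW948. CDC6 had this order too, with overlap at each step but the last. In MCM4 and MCM5, untreated SW948 and treated HT55 were neighbours whose ranges overlapped. CDT1 and ORC1 also had both HT55 groups above both SW948 groups, with no order between the SW948 groups beyond their spread. The HT55 groups were apart for ORC1 and overlapped for CDT1.

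Promoter sequences are shown because E2F proteins and the CCAAT-binding factor NF-Y are known regulators of replication genes. A further reason is that, in the main test, all 10 genes fell in HT55 and 8 of them in SW948. RefSeq windows of GRCh38.p14, from 250 bases before to 50 after each start, were found for 8 of the 10 genes, in 10 windows. MCM4 and MCM5 had no entry. The stretches below run from 120 bases before to 30 bases after the start, 5′ to 3′ on the gene's strand, and capitals mark E2F octamers. MCM6 is shown as a subunit that fell in both lines, CDC6 and CDT1 as loaders that share an octamer, of which CDC6 passed in SW948 and CDT1 did not, MCM10 for the largest decrease, and ORC1 as a gene with no octamer in its window.
MCM6 (chr2:135876414-135876563, minus strand): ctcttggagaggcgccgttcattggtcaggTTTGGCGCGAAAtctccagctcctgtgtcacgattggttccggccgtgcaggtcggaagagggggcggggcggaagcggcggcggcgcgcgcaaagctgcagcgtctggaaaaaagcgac
CDC6 (chr17:40287759-40287908, plus strand): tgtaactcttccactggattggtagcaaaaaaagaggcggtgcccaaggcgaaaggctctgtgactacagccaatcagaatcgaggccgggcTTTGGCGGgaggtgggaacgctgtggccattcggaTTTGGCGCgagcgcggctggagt
CDT1 (chr16:88803669-88803818, plus strand): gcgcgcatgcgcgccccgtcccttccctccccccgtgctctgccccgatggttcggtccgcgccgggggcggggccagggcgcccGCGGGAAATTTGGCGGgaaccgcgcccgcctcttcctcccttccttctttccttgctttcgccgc
MCM10 (chr10:13161438-13161587, plus strand): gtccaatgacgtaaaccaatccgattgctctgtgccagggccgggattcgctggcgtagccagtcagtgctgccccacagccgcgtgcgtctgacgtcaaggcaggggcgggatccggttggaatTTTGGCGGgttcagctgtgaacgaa
ORC1 (chr1:52404394-52404543, minus strand): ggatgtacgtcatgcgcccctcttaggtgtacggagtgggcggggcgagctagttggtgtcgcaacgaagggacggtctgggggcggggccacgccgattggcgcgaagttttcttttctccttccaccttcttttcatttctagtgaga

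Octamers were TTTCCCGC, TTTCCCGG, TTTCGCGC, TTTCGCGG, TTTGCCGC, TTTGCCGG, TTTGGCGC and TTTGGCGG, searched on both strands and chosen after the windows of the 10 genes had been read. At least 1 octamer was in 8 of the 10 windows, and in 6.19% of 35116 windows of all genes. Because of that choice, the contrast between these shares is no test, and several of the 10 windows belong to MCM7. The capitals of MCM6 are 2 overlapping octamers on opposite strands, and those of CDT1 are 2 that adjoin. The ORC1 stretch holds the letters TTGGCGCGAA, which also lie within the capitals of MCM6. In ORC1 they lack the T before or the A after that would complete a listed octamer, so they are not capitalised. CDC6, CDT1 and MCM10 share TTTGGCGG near the start, and their log2 fold changes in SW948 were -1.25, 0.30 and -2.68. The CCAAT letters, on either strand, were in 8 of the 10 windows and in 34.6% of all windows. MCM2 and CDT1 were without CCAAT in this window, and ORC1 and an alternative start of MCM7 without an E2F octamer. An E2F octamer was in 8 of 13 windows of firing factors, 3 of 10 of DNA synthesis genes, 1 of 6 of the other ORC subunits, 4 of 19 of licensing control genes and 2 of 8 of G2/M genes, and the CCAAT letters were in 6, 7, 3, 6 and 8 of these. Matches are letters in a window and were not tested for binding.

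Several of these genes share a start region with a gene on the other strand, which gave a comparison over short distances. TPRA1, a membrane protein gene that starts 143 bases from MCM2, had log2 fold changes of 0.044 (adjusted p = 0.688) in HT55 and 0.15 (adjusted p = 0.139) in SW948, neither of which passed, while MCM2 fell in both. PRKDC, the catalytic subunit of DNA-dependent protein kinase, starts 7 bases from MCM4 and was at 0.027 (adjusted p = 0.874) in HT55 and fell by 0.87 (adjusted p = 5.57e-07) in SW948. Both genes of this pair thus had a lower response in SW948 than in HT55, PRKDC by -0.87 (adjusted p = 0.000242). PRPF38A, a splicing factor gene 179 bases from ORC1, fell by 0.43 in HT55 (adjusted p = 0.000911) and by 0.43 in SW948 (adjusted p = 9.53e-05), where ORC1 itself did not pass.

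AP4M1, a subunit of a vesicle adaptor complex, starts within the first part of MCM7, 391 bases from the start of MCM7 on the other strand. AP4M1 was at -0.021 (adjusted p = 0.894) in HT55 and fell by 1.11 (adjusted p = 4.48e-08) in SW948, a difference between the lines of -1.07 (adjusted p = 5.91e-06). The strand setting of the counting is not given in the sources used here, so reads in the stretch that both genes cover cannot be assigned with certainty. AP4M1 had 3250 counts over the 16 libraries, against 1178 to 4151 for MCM7 in each library. MIR25, MIR93 and MIR106B, microRNA genes within MCM7, had 26, 4 and 4 counts over all 16 libraries.

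**Figure D4:**
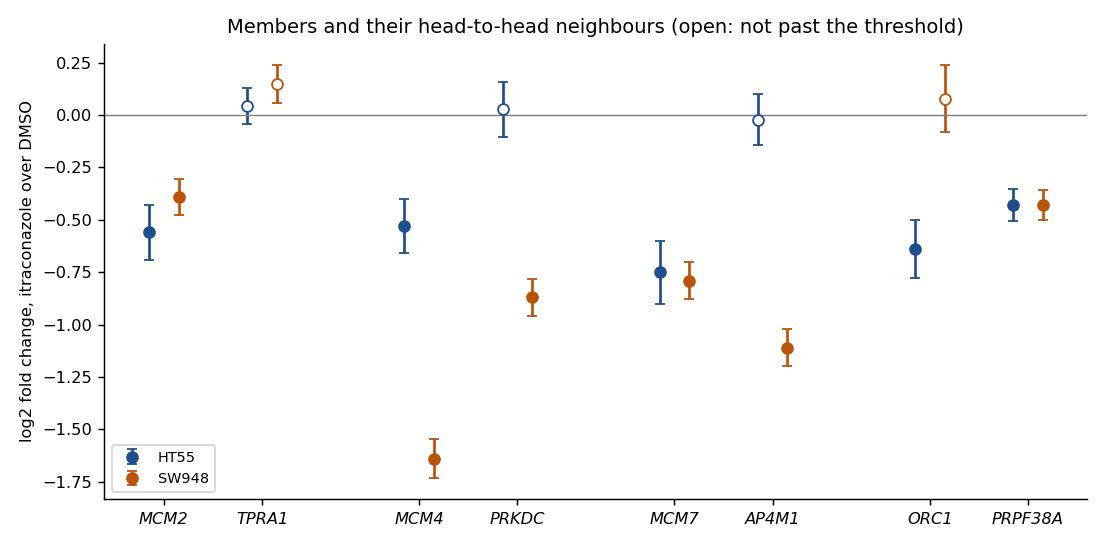
Log2 fold change (itraconazole over DMSO) of 4 genes and the neighbour that starts beside each on the other strand, in HT55 (blue) and SW948 (orange), with bars of 1 standard error; open points did not pass an adjusted p of 0.05. MCM2 falls in both lines while TPRA1 is open in both, and AP4M1 and PRKDC fall in SW948 alone of the lines tested.

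Other genes of the pathway were counted by role, to be read against all genes tested, of which 26.5% fell and 27.5% rose in HT55 and 41.3% fell and 38.9% rose in SW948. Of the 5 remaining ORC subunits, 3 fell and 0 rose in HT55 (5 fell by library totals), and 2 fell and 1 rose in SW948 (1 fell in DESeq2 and in 6 of the 8 fits that left out a library, and 0 rose by library totals), with ORC5 at -0.70 and -1.36 and ORC6 at -0.40 and -0.31 in HT55 and SW948. Of 10 genes that control licensing, 4 fell and 2 rose in HT55, and 3 fell and 5 rose in SW948, with list medians of -0.12 and 0.10. These counts are near those of all genes. GMNN (geminin, the CDT1 inhibitor) fell in both lines, at -0.71 and -0.98, as did SKP2, a ubiquitin ligase subunit that marks CDT1 for destruction, at -0.97 and -2.56. DTL, the adaptor that brings CDT1 to its other ligase in S phase, fell by 0.53 and by 1.72, whereas CUL4B, a scaffold of that ligase family, rose by 0.50 and 0.54. By library totals the SW948 counts were 5 lower and 3 higher for this list.

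Of 13 firing factors, 9 fell and 0 rose in HT55, and 9 fell and 2 rose in SW948. In HT55, 5 fell without control replicate 3, and 1 rose without treated replicate 3. The list's median log2 fold change was -0.73 in HT55 and -1.42 in SW948, below that of the 10 licensing genes in both. CDC45, which joins MCM2-7 and GINS to form the active helicase, was at -1.03 and -3.62, GINS2 at -1.09 and -3.23, GINS4 at -0.84 and -2.50, and the kinase CDC7 at -1.21 and -2.95. DBF4, the activating partner of CDC7, was among the genes higher in SW948, at 1.35 (adjusted p = 1.18e-09), with 0.10 (adjusted p = 0.45) in HT55; the other was DONSON, at 1.47 (adjusted p = 6.06e-07). DBF4 and DONSON were named after their values were seen.

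Among relatives of the ring, 4 of 7 were lower and 1 higher in HT55, and 4 of 6 lower and 2 higher in SW948, with medians of -0.35 and -0.66. By library totals 0 were higher in either line, and without treated HT55 replicate 3 there were 2 in HT55. MCM8 (-0.63 and -0.85) and MCM9 (-0.35 and -1.42), which form a separate helicase used in recombination, fell in both lines, as did GRWD1 (-0.43 and -0.75), a CDT1-binding protein. MCM3AP, a gene of messenger RNA export named for its binding to MCM3, went in opposite directions, with 0.27 (adjusted p = 0.00875) in HT55 and -0.57 (adjusted p = 1.15e-05) in SW948.

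Of 9 genes for unloading of the helicase at the end of replication, 2 fell and 3 rose in HT55, and 4 fell and 2 rose in SW948. The medians, -0.01 and -0.02, were close to those of all genes, as were the counts. The ubiquitin ligase TRAIP fell in both lines (-1.08 and -0.65), while the segregase VCP (0.39 and 0.49) and its adaptor UBXN7 (0.36 and 1.25) rose in both. NPLOC4, another VCP cofactor, rose by 0.25 (adjusted p = 0.0088) in HT55 and fell by 0.29 (adjusted p = 0.00319) in SW948. By library totals, 4 of this list were lower in HT55 and 7 in SW948.

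The E2F and RB families, whose proteins control licensing genes, had 6 of 13 genes lower and 1 higher in HT55, and 9 lower and 1 higher in SW948, with medians of -0.22 and -0.89. By library totals 0 were higher in either line, by DESeq2 0 were higher in HT55, and without treated HT55 replicate 3 there were 2. RBL1, the pocket protein p107, was at -0.94 and -2.75, the repressor E2F7 at -0.61 and -2.30, E2F8 at -0.47 and -1.38, and the partner TFDP1 at -0.60 and -1.49. The largest decreases of the list in SW948 were those of E2F2 (-4.77) and E2F1 (-3.03), which did not pass in HT55 (-0.62 and -0.20). Their differences in response between the lines were -4.11 (adjusted p = 2.62e-05) and -2.81 (adjusted p = 4.18e-07) by the interaction test. E2F1 and E2F2 were named after their values were seen. Of 8 genes of DNA synthesis, 7 fell in HT55 and 8 in SW948 with 0 higher in either, among them POLA1 (-0.76 and -2.72), PRIM1 (-1.10 and -1.89), RRM2 (-0.77 and -1.76) and FEN1 (-0.52 and -1.99).

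G2/M genes were counted as another group of the cell cycle. In HT55, 4 of 8 fell and 0 rose, and in SW948, 1 fell and 7 rose, or 3 rose by library totals. The HT55 count of 4 was 1 without control replicate 1, control replicate 3 or treated replicate 4, and 2 without control replicate 2 or 4, and 1 rose without treated replicate 3. CCNB1, CDK1 and PLK1, of the mitotic entry machinery, were lower in HT55 (-0.36, -0.23 and -0.37) and higher in SW948 (0.45, 0.46 and 0.45), and MKI67 fell in both (-0.31 and -0.92). These SW948 rises are not far in size from the shift by library totals, which put the median of all genes at -0.354. The largest rises in SW948 were those of CCNA2 (1.43), BUB1 (1.33) and AURKA (1.18). In HT55 CCNA2, BUB1 and AURKA did not pass (-0.19, -0.026 and 0.17), and they were named after their values were seen. By the interaction test, 7 of the 8 had a higher response in SW948 and 1 a lower response. The median of the list was 0.45 in SW948, beside -0.95 for the licensing genes and -0.025 for all genes tested.

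**Figure D5:**
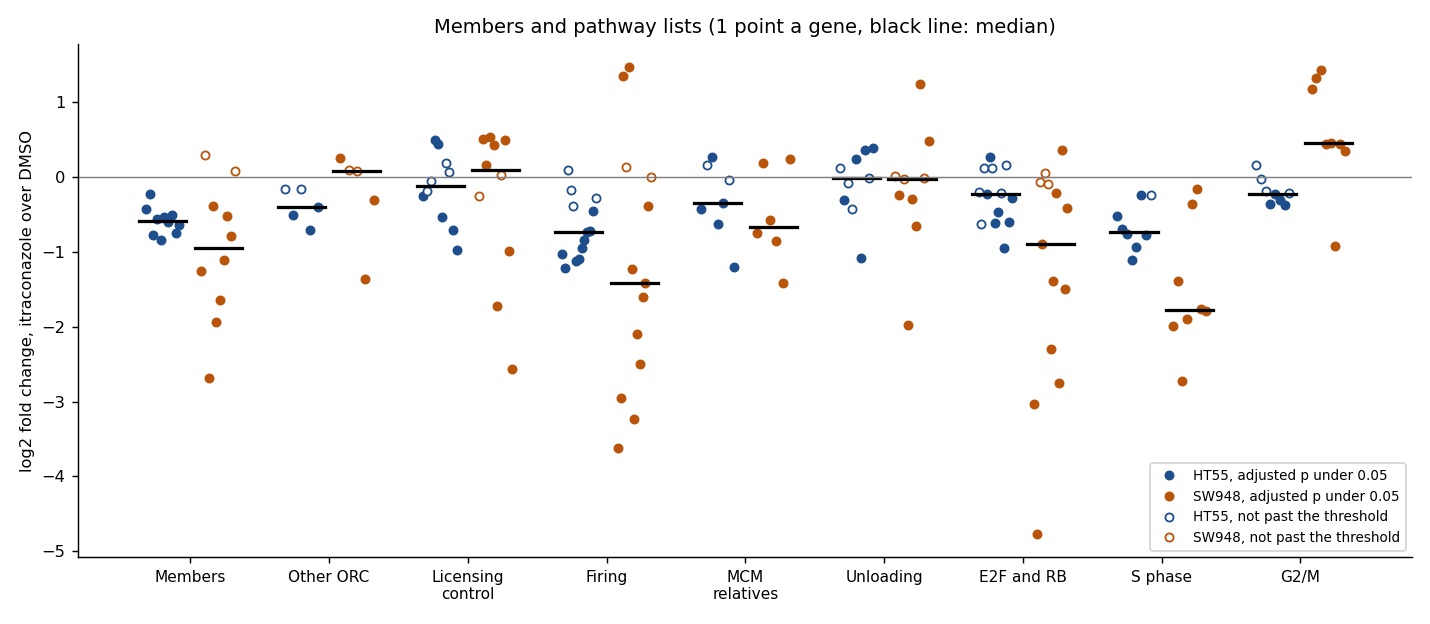
Log2 fold change (itraconazole over DMSO) of each gene of the licensing set and of 8 pathway lists, in HT55 (blue) and SW948 (orange); filled points passed an adjusted p under 0.05 and black lines are list medians. In SW948, the E2F and RB list (E2F2 at -4.77) and the firing list (CDC45 at -3.62) reach lower than the licensing genes. The lowest S phase gene, POLA1 at -2.72, is close to MCM10 at -2.68. Of the G2/M genes, 7 of 8 lie above 0 in SW948, or 3 of 8 past the threshold by library totals.

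How alike the 10 genes were was measured as a correlation of log2 CPM, centred within each line, over the 16 libraries, which are shared by all genes. The values were not centred within treatment groups, so r includes the step between treated and control libraries described above. Against the mean of the other 9 genes, MCM5 had r = 0.981, CDC6 0.953, MCM7 0.952, MCM4 0.949, MCM6 0.944, MCM3 0.939, MCM10 0.872 and MCM2 0.851. The lowest values were those of ORC1, at r = 0.358, and CDT1, at r = -0.172, over both lines together. Among 8699 other genes, those most like the mean of the 10 were CENPO (r = 0.991), a centromere protein, COPS6 (0.991), a COP9 signalosome subunit, the helicase BLM (0.989), the histone chaperone SSRP1 (0.987) and the chaperone DNAJC7 (0.987). BLM was at -0.89 in HT55 and -1.67 in SW948. COPS6 was at -0.24 and -0.44, and its annotated end lies 45 bases from the end of MCM7 on the other strand.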

How the data were processed

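RNA from 16 samples (HT55 or SW948, DMSO or itraconazole, 4 each, biological replicates per the study's methods) was sequenced with single reads of 50 bases. The authors aligned reads to hg19 and deposited 1 table of raw read counts per Ensembl gene for each library. Per the labels, TopHat, HTSeq and DESeq were used, and their versions are not given in the sources used here. The 5 totals outside genes were left out of library sizes. Shares were taken of the sum of counts in genes, in no gene, ambiguous and not uniquely aligned. Of this sum, 3.79 to 4.94% fell in no gene, 1.23 to 1.48% were ambiguous and 22.0 to 27.9% were not uniquely aligned. Reads shared with near-identical copies are thus not in the counts.

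Symbols, coordinates and lengths came from GENCODE annotation lifted to GRCh37, which named 47098 of 54127 identifiers. Differential expression was tested with edgeR 4.0.16 in R 4.3.3 (quasi-likelihood F test, TMM scaling, filterByExpr), with a separate fit for each line and a fit of all 16 libraries for the interaction and the differences between lines. P-values were adjusted by Benjamini and Hochberg over all genes tested, with a threshold of 0.05. DESeq2 1.42.0 and the other settings are given in the closing section. Levels are CPM on the TMM scale of 16 libraries, log2 CPM used a prior count of 2, and RPKM divides CPM by merged exon length. The fits were also run on simulated counts, with far fewer changed genes than in these data and the same dispersion for every gene. That run therefore cannot show how the fits behave with so many changed genes or with uneven treated libraries.

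All 10 members are named. From each pathway list, up to 4 genes were named that passed in both lines with the largest mean absolute fold, plus any that passed in opposite directions, the 5 genes most like the members (mean log2 CPM of at least 3 in each line), and genes that start within 1000 bases of a member on the other strand. Members and lists were chosen with earlier results of these data known. Promoters and motifs were read from RefSeq windows.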

Additional observations from a re-analysis of the deposited data

Results flagged for a closer look

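The response to itraconazole differed between HT55 and SW948 for 6 of the 10 genes by the interaction test in edgeR. Among all 13249 genes tested, 7141 passed, 29.1% with a lower and 24.8% with a higher response in SW948. The count of 6 of 10 is thus near the share of all genes. The SW948 log2 fold change minus that of HT55 was -1.89 for MCM10, -1.09 for MCM4, -1.07 for MCM3 and -0.80 for CDC6, and 0.75 for ORC1 and 0.55 for CDT1. MCM10, MCM4, MCM3 and CDC6 were lower in both lines, and ORC1 and CDT1 were lower in HT55 and did not pass in SW948. These 6 passed in each of the 16 fits that left out a library, and CDT1 did not pass by library totals (0.35, adjusted p = 0.0978). In none of the 40 groups of 4 values (10 genes in 4 groups) did a library stand beyond Dixon's 95% critical value.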

How the results depend on the processing

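Among the 10 licensing genes, the counts lower in HT55, lower in SW948, with an interaction, and different between untreated or treated lines stayed within 1.5 times under every alternative run. Counts of the pathway lists moved more, as given beside them. Single genes near 0 changed sign. Under plain library totals these were ORC1 (-0.26) and CDT1 (-0.041) in SW948, the interactions of MCM2 (-0.0043) and MCM6 (-0.19), and MCM7 between untreated lines (0.20). DESeq2 size factors and the DESeq2 Wald test gave 0.008 and 0.0095 for the MCM7 interaction and 0.0075 and 0.009 for MCM7 between treated lines. MCM7 between untreated lines was 0.012 with no filter, 0.025 with at least 10 counts in every library, 0.0055 without the top 20 and mitochondrial genes and 0.0087 with the replicate block, and between treated lines 0.0073 with at least 10 counts. Leaving out 1 library gave -0.0067 to 0.21 for ORC1 in SW948, -0.053 to 0.081 and -0.15 to 0.15 for the MCM6 and MCM7 interactions, and -0.011 to 0.022 and -0.14 to 0.16 for MCM7 between untreated and treated lines. Coding length in place of exon length gave subunit spreads of 7.89 and 6.73 times in HT55 and 11.1 and 13.8 times in SW948, with DMSO and itraconazole. The median over genes in place of the mean gave loader shifts of 0.03 in HT55 and 1.27 in SW948. The cause of these changes was not tested.

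With the replicate block, 6450 genes in HT55 (6553 without it) and 10299 in SW948 (10030 without it) passed. The block moved the MCM5 interaction past the threshold (-0.45, adjusted p = 0.0435) and changed no other call of the 10 genes. What same-numbered libraries share beyond a number is not given in the sources used here. Within a line, their deviations from the group means correlated at -0.025 to 0.116, and not every library correlated best with its own number. The highest r was that of replicate 3 in each line (0.116 in HT55 and 0.104 in SW948). A link between same-numbered libraries was not tested. CDT1 in HT55 (-0.22) also lost its call with DESeq2 size factors (adjusted p = 0.0565), without the top 20 and mitochondrial genes (0.051) and in 1 fit on all 16 libraries (0.149). CDT1 in SW948 passed with no filter (0.27, adjusted p = 0.0191) and in the fit on all 16 libraries (0.33, adjusted p = 0.0396). Depth limits MCM10 in treated SW948 cultures, where it had 13 to 26 reads per library.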
